A study of Homo sapiens with 34 samples.

Results

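The genes described here encode the subunits of the oxidative phosphorylation (OXPHOS) complexes I to V. They were taken by symbol: NDUFA, NDUFB, NDUFC, NDUFS and NDUFV for complex I, SDHA to SDHD for complex II, UQCR genes for complex III, COX4 to COX8 genes for complex IV, ATP5 genes for complex V, and the MT-ND, MT-CO, MT-ATP and MT-CYB genes of mitochondrial DNA. Pseudogenes were left out, among them 12 of the ATP5P names, which reached 0.393 CPM at most. This gave 102 of 37951 rows, 89 of them nuclear-encoded (86 symbols) and 13 mitochondrially encoded. NDUFA3 has 2 rows and NDUFA6 has 3. Of the 89 nuclear rows, 83 passed the filter on low counts, as did all 13 mitochondrial rows.

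All libraries come from ESI017, a human embryonic stem line in long use, which was sampled under 17 conditions, each as 2 replicates. The control was kept undifferentiated in mTeSR PLUS for 48 h. For 24 h, DE(a) cells received 100 ng/ml activin A and 2 µM CHIR99021, a WNT pathway activator. APS (anterior primitive streak) cells received 4 µM CHIR99021 together with bFGF at 20 ng/ml and activin A at 30 ng/ml. MPS (mid streak) cells received the same activin A and bFGF with 6 µM CHIR99021 and, in addition, BMP4 at 40 ng/ml. PPS (posterior streak) cells received the bFGF, BMP4 and CHIR99021 of MPS cells without activin A. Each of these 4 populations then spent a further day in 1 of 3 media and was collected at 48 h. DE(b), for definitive endoderm, held 100 ng/ml activin A and 250 nM LDN-193189, a BMP receptor inhibitor. PM, for paraxial mesoderm, held 1 µM A-8301, an activin receptor inhibitor, with 20 ng/ml bFGF and 250 nM LDN-193189. The labels and methods list no CHIR99021 in PM medium, whereas a supplementary legend on another experiment of the study gives it there, so whether the PM libraries had it is not settled here and every comparison with PM carries that doubt. LM, for lateral mesoderm, held BMP4 at 30 ng/ml, 4 µM IWP2, an inhibitor of WNT secretion, and 1 µM A-8301. The study's supplement calls the replicates biological, but neither it nor the labels say whether they were separate cultures or days, so the p-values measure the spread between libraries, part of which may be technical. All the libraries come from 1 line, and each table of the series holds 1 replicate of every condition.

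In the inner mitochondrial membrane, complexes I, III and IV pump protons while passing electrons from NADH to oxygen, complex II brings in electrons from succinate without pumping, and complex V, the ATP synthase, lets the protons flow back to make ATP. Complex II is made from nuclear genes alone, whereas the other complexes also need subunits translated inside the mitochondrion from mitochondrial DNA. Pluripotent stem cells are known for a strong reliance on glycolysis although they hold a working respiratory chain.

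Total counts per library ranged from 15522780 to 23439799. The labelled states were checked against marker genes. POU5F1 had 1350 and 1630 CPM (counts scaled to a library total of 1e6) in the control libraries, TBXT 259 to 1150 CPM in the 8 libraries at 24 h, SOX17 113 to 553 CPM in the 8 DE(b) libraries, TBX6 146 to 195 CPM in the 8 PM libraries and HAND1 388 to 2130 CPM in the 8 LM libraries. Of 5 amnion markers, TFAP2A (23.2 to 167 CPM), GATA3 (36.2 to 140 CPM) and ISL1 (10.8 to 94.8 CPM) were present in all 8 LM libraries, while VTCN1 had a median of 0.245 CPM there and reached 9.74 CPM. GABRP had a median of 1.33 CPM in LM and reached 51.9 CPM. The study also lists ISL1 as a lateral mesoderm marker. In PPS 24h TFAP2A had 37.4 and 72.5 CPM and GATA3 51.5 and 56.5 CPM. In DE(a) 24h they had 0.726 and 0.914 CPM and 0.805 and 2.64 CPM. FOXA2, the other endoderm marker checked, was not high in every DE(b) library. It had 86 and 125 CPM in DE(a)-DE(b), 52.9 and 79.1 CPM in APS-DE(b), 17.1 and 37.8 CPM in MPS-DE(b) and only 2.17 and 11 CPM in PPS-DE(b), where SOX17 was also lowest, so DE(b) below names the medium and not a uniform endoderm state. EOMES, a streak marker, likewise ranged from 12.2 to 666 CPM at 24 h. The pluripotency markers were not all lost at 24 h. POU5F1 still had 595 to 1080 CPM there, while SOX2 had 278 and 331 CPM in the control and 0.361 to 28.3 CPM at 24 h. NANOG had 171 and 188 CPM in the control, 154 and 156 CPM in DE(a) 24h and 11.4 and 12.4 CPM in PPS 24h. Several markers were shared between 24 h and a medium at 48 h. FOXF1, the other lateral mesoderm marker, had 20.6 to 110 CPM in LM, and 81.6 and 93.4 CPM in PPS 24h. MSGN1, the other paraxial marker, had 49.7 to 96.8 CPM in PM, and 64.1 and 92.1 CPM in PPS 24h. The streak marker MIXL1 had 521 to 1800 CPM at 24 h and 559 to 1240 CPM in DE(b), and TBXT had 133 to 557 CPM in PM. These bulk values cannot tell a change in the cells present from a change in mRNA per cell.

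The 13 mitochondrially encoded mRNAs took far more of each library than the nuclear-encoded subunits together. Their summed share was 3.55% to 9.28% of counts, with a median of 5.44% over 34 libraries, against 0.406% to 0.758%, with a median of 0.609%, for the 89 nuclear rows. As a mean of the 2 replicates, the nuclear sum was highest in the control, at 0.744% and 0.756%. In replicate 1, where the control had 0.744%, DE(a) 24h had 0.734% and DE(a)-PM 0.717%. In replicate 2, where the control had 0.756%, the next highest was DE(a) 24h at 0.638%. The nuclear sum was 0.44% to 0.734% (median 0.596%) at 24 h, 0.456% to 0.654% (median 0.575%) in DE(b), 0.406% to 0.717% (median 0.561%) in PM and 0.514% to 0.758% (median 0.63%) in LM. Only 1 library, DE(a)-LM replicate 1 at 0.758%, lay above the control libraries.

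**Figure D1:**
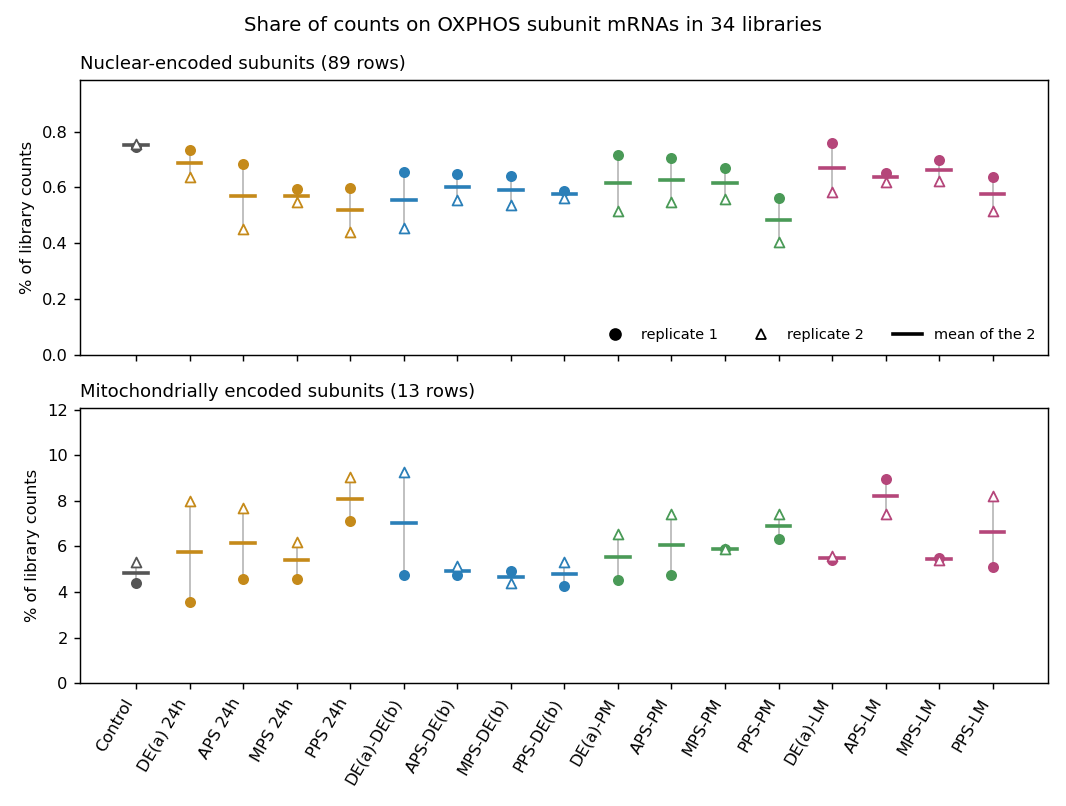
Share of library counts on the nuclear-encoded (top) and mitochondrially encoded (bottom) subunit mRNAs, in percent, for the 17 conditions. Filled circles are replicate 1, open triangles replicate 2 and bars their mean. The nuclear sum was lower in replicate 2 in 16 of 17 conditions, all but the control, and the mitochondrial sum higher in 13 of 17.

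The replicates differed in both sums. The nuclear sum ran from 0.563% to 0.758% (median 0.654%) in replicate 1 and from 0.406% to 0.756% (median 0.548%) in replicate 2, and was lower in replicate 2 in 16 of 17 conditions. The control was the exception, at 0.744% in replicate 1 and 0.756% in replicate 2. The mitochondrial sum had a median of 4.77% in replicate 1 and 6.56% in replicate 2. The ratio of the mitochondrial to the nuclear sum ranged from 4.84 in DE(a) 24h replicate 1 to 20.5 in PPS 24h replicate 2. With a replicate term in the model, the median log2 difference of replicate 2 from replicate 1 was -0.30 for the nuclear subunits, 0.35 for the mitochondrial mRNAs and 0.00 for all genes tested. The nuclear subunits tested have a median transcript length of 758 nt, against 3130 nt for all genes tested. The median difference was -0.36 for the cytosolic ribosomal proteins (785 nt), -0.25 for the mitochondrial ribosomal proteins (1242 nt) and -0.19 for the assembly factors (1741 nt). All genes in classes of length had smaller differences, at -0.06 for the shortest class (median 411 nt), -0.17 for the next (625 nt), -0.135 for the one that holds 758 nt (883 nt) and 0.07 for the longest (6835 nt). The nuclear subunits thus differed between replicates by more than genes of like length did. The part of transcript length in the values below was not tested. The calls below are from the model without the replicate term. With it, no subunit lost a call and more were called in most comparisons, from 15 to 27 nuclear subunits at 24 h against the control and from 16 to 40 in PPS against DE(a) at 24 h. The share of all genes called with the term is not given here. Whether the gain is particular to the subunits therefore cannot be read from these counts. The typical difference between replicates, as the median absolute log2 difference, was 0.317 for nuclear and 0.379 for mitochondrial subunits, against 0.222 for all genes whose mean reached 1 CPM.

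Across the 17 conditions the nuclear subunits varied little in level. Leaving NDUFA6 aside, 76 rows exceeded 10 CPM in some condition mean. The ratio of their highest to lowest condition mean ran from 1.25 to 2.79 with a median of 1.77, and it reached 2 for 15 rows, or 19.7%. Over all 12263 genes above 10 CPM the median ratio was 2.38, and 61.8% reached 2. The ratios of the 13 mitochondrial mRNAs lay between 1.65 and 2.2. For 28 nuclear rows above 10 CPM the control had the highest condition mean, and the share of all genes for which it did is not given here. The only such row with its lowest mean in the control was a row of NDUFA6, a gene whose split of reads is uncertain.

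**Figure D2:**
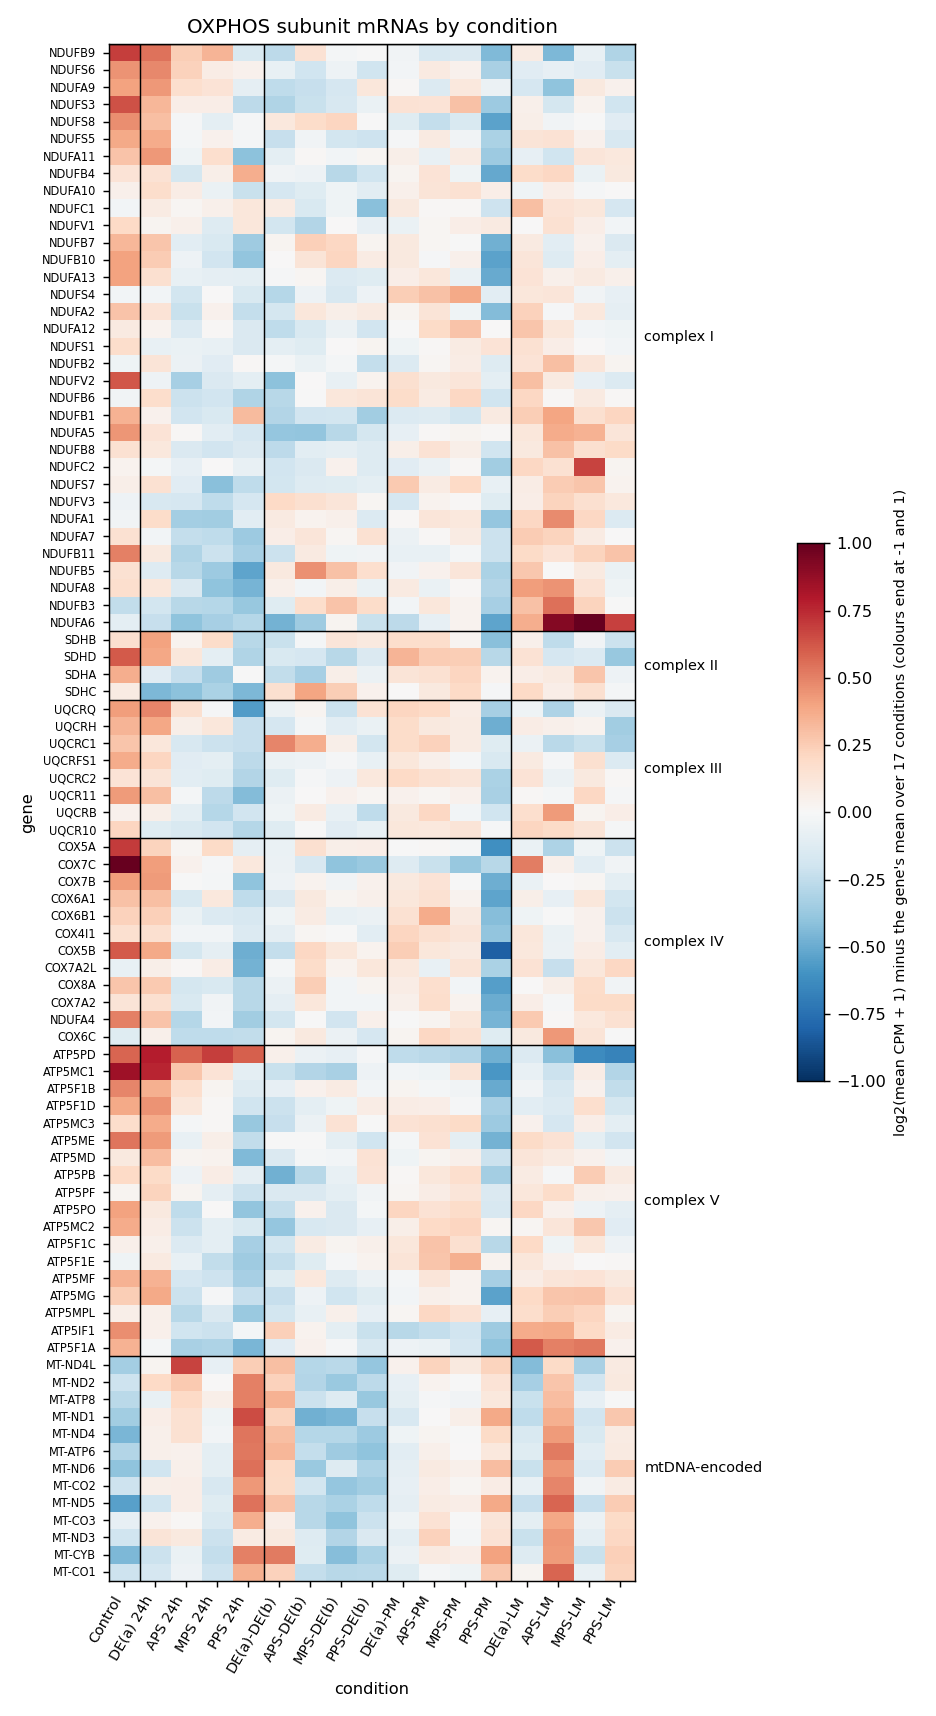
Levels of 89 subunit mRNAs above 10 CPM in some condition (76 nuclear, 13 mitochondrial) in the 17 conditions, as log2(mean CPM + 1) minus the gene's mean over conditions (red above, blue below). Rows are grouped by complex and ordered within it by LM minus 24 h, with the rows of NDUFA6 summed; ATP5PD falls from 24 h to 48 h while ATP5F1A, also of complex V, is highest in LM.

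A test of any difference among the 17 conditions, with edgeR's quasi-likelihood test and Benjamini-Hochberg adjustment, called 22 of 83 nuclear subunits (26.5%) and 0 of 13 mitochondrial mRNAs. Of all 17895 genes tested, 67.1% were called. At an unadjusted p under 0.05 the counts were 26 nuclear and 0 mitochondrial, and DESeq2 called 36 nuclear and 0 mitochondrial. With the replicate term edgeR called 48 of 83 nuclear and 4 of 13 mitochondrial. The share of all genes called with that term is not given here, so the gap between 26.5% and 67.1% holds only for the model without it. The 22 calls rested mostly on complexes I (9 of 38 tested), V (5 of 18), IV (4 of 14) and II (3 of 4), with 1 of 9 in complex III. ATP5PD had the lowest adjusted p, 1.03e-05, followed by ATP5F1A at 5.23e-05 and UQCRC1 at 0.000199.

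Promoter sequence was read for the nuclear members from RefSeq (GRCh38.p14), as 250 bases before and 50 after the start of transcription. Of 86 symbols, 69 matched. The core letters of NRF1, GCGCANGCG, were in 22 of 69 promoters (31.9%), those of the ETS factor GABPA, CCGGAAG, in 20 (29.0%), and those of YY1, AAGATGGCG, in 8 (11.6%), searched on both strands. Of all 27305 promoters in the table, 8.05%, 10.7% and 1.85% held them. The NRF1 letters can match both strands at 1 place. A match is a run of letters and was not tested for binding. The promoters of 3 members with differences between conditions are shown with these letters in capitals: SDHA has the NRF1 letters at 4 places, UQCRC1 those of NRF1 and YY1, and ATP5PD those of GABPA. They lie at chr5:218070-218369 (plus strand), chr3:48609597-48609896 (minus strand) and chr17:75046920-75047219 (minus strand).
SDHA: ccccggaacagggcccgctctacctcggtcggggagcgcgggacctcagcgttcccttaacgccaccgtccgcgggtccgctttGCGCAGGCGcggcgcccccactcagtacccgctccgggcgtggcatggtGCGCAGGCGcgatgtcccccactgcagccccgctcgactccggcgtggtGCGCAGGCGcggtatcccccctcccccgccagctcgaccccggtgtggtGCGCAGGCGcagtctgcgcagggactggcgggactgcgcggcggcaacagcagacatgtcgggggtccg
UQCRC1: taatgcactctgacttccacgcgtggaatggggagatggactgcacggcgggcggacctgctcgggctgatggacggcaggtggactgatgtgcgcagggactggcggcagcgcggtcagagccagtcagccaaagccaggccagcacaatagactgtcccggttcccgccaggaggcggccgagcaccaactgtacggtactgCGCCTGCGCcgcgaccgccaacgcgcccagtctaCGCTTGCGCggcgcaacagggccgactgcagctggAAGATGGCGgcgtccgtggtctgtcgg
ATP5PD: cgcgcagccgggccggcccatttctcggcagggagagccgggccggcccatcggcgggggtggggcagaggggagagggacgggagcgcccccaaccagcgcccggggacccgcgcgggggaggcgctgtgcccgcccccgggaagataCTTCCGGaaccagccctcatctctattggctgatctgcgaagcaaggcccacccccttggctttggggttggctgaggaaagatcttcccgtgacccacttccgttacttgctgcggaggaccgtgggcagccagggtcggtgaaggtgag
ATP5F1A, ATP5MC1 and COX7C had none of the 3 runs in their windows.

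The first question was how the subunits differed between pluripotent cells and the 4 primitive streak populations. At 24 h, 15 of 83 nuclear subunits (18.1%) were lower than in the control and 0 were higher. Of all genes tested, 15.6% were lower and 16.9% higher. The median log2 fold change was -0.22 for the 83 nuclear subunits, 70 of which had a negative value, and 0.01 for all genes. DESeq2 called 19 nuclear subunits, all lower, and at an unadjusted p under 0.05 the count was 22. The control libraries were grown for 48 h in another medium, so time and base medium cannot be told apart from the streak treatments. The control was also the only condition whose nuclear sum was not lower in replicate 2, so its distance from the 24 h libraries was not the same in both replicates. The count fell to 6 without control replicate 1 and to 5 without control replicate 2. ATP5F1A and the low COX6B2 were called in all 34 fits that left out 1 library.

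Among the matrix-arm subunits of complex I, NDUFV2, an iron-sulfur protein of the NADH-oxidizing module, had 75.8 and 100 CPM in the control and 34.4 to 68.9 CPM (median 53.4) at 24 h. The groups did not overlap, and the log2 fold change was -0.72 ± 0.20 (SE, edgeR adjusted p = 0.00904). NDUFB11, a subunit of the membrane arm, fell by 0.63 on the log2 scale (SE 0.159, edgeR adjusted p = 0.00391), from 75.3 and 80.3 CPM to 35.7 to 66.4 CPM. The calls of NDUFV2 and NDUFB11 were lost without control replicate 2. The core subunits NDUFV1 and NDUFS1 were not called, with log2 fold changes of -0.11 ± 0.09 and -0.19 ± 0.09 (SE, edgeR adjusted p = 0.386 and 0.121).

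In complex II, 3 of 4 subunits were called lower. SDHA, the flavoprotein that oxidizes succinate, had 76 and 86.7 CPM in the control and 45.1 to 70.5 CPM (median 56.2) at 24 h, with a log2 fold change of -0.47 ± 0.10 (SE, edgeR adjusted p = 0.000881). SDHC, a membrane anchor, had 104 and 111 CPM in the control and 62.2 to 86.2 CPM at 24 h, a log2 fold change of -0.43 ± 0.13 (SE, edgeR adjusted p = 0.0138). SDHD, the other anchor, had a log2 fold change of -0.53 (SE 0.167, edgeR adjusted p = 0.0182). The iron-sulfur subunit SDHB had 41.3 and 46 CPM in the control and 27.5 to 54.6 CPM at 24 h, with a log2 fold change of -0.00 ± 0.18 (SE, edgeR adjusted p = 1). The SDHA call was lost without control replicate 1, and those of SDHC and SDHD without either control replicate.

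In complex III the core protein UQCRC1 and the Rieske iron-sulfur protein UQCRFS1 were called lower, with log2 fold changes of -0.32 ± 0.10 and -0.37 ± 0.11 (SE, edgeR adjusted p = 0.0188 and 0.0141). In complex IV the small subunit COX7C had 238 and 273 CPM in the control and 96.2 to 175 CPM (median 145) at 24 h. The control libraries held the 2 highest values of all 34, and the log2 fold change was -0.81 ± 0.24 (SE, edgeR adjusted p = 0.013). COX5A, a matrix-side subunit, had 100 and 104 CPM in the control and 47.3 to 77.2 CPM at 24 h, a log2 fold change of -0.55 ± 0.17 (SE, edgeR adjusted p = 0.0158). COX5B, among the nuclear members with the widest range of condition means, had 55.9 and 67.8 CPM in the control and 21.1 to 57.6 CPM at 24 h, and was not called (log2 fold change -0.65 ± 0.26, SE, edgeR adjusted p = 0.0622), but it was with the replicate term (edgeR adjusted p = 0.0137). In complex V the catalytic-core subunit ATP5F1A alone was called, at 699 and 712 CPM in the control and 372 to 575 CPM (median 452) at 24 h, a log2 fold change of -0.55 ± 0.13 (SE, edgeR adjusted p = 0.00213). Its partner in the catalytic core, ATP5F1B, had a log2 fold change of -0.31 ± 0.13 (SE, edgeR adjusted p = 0.0668, or 0.0211 and called with the replicate term). The calls of COX7C, COX5A and UQCRFS1 were each lost without control replicate 1 and also without control replicate 2, and that of UQCRC1 without control replicate 1.

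From 24 h to 48 h, each of the 3 media was compared with the 4 populations at 24 h. The 8 libraries at 24 h enter all of these comparisons and the one with the control, so the comparisons are not independent. In DE(b), 5 of 83 nuclear subunits were higher and 8 lower, against 24.8% and 26.2% of all genes. In PM, 3 were higher and 9 lower, against 23.2% and 25.1%. In LM, 13 were higher and 7 lower, against 27.4% and 28.6%. For the nuclear subunits the median log2 fold change came to -0.03 in DE(b), -0.07 for PM and 0.11 for LM, beside -0.03, -0.02 and -0.01 for all genes. When libraries were scaled by their totals instead of by TMM, their medians became 0.01 in DE(b), 0.02 for PM and 0.14 for LM, so that the first 2 changed sign. The PM count fell from 12 to 6 without APS 24h replicate 1, and the LM count from 20 to 13 without APS-LM replicate 1. Without APS 24h replicate 1 the median was 0.07 in DE(b) and 0.06 in PM.

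**Figure D3:**
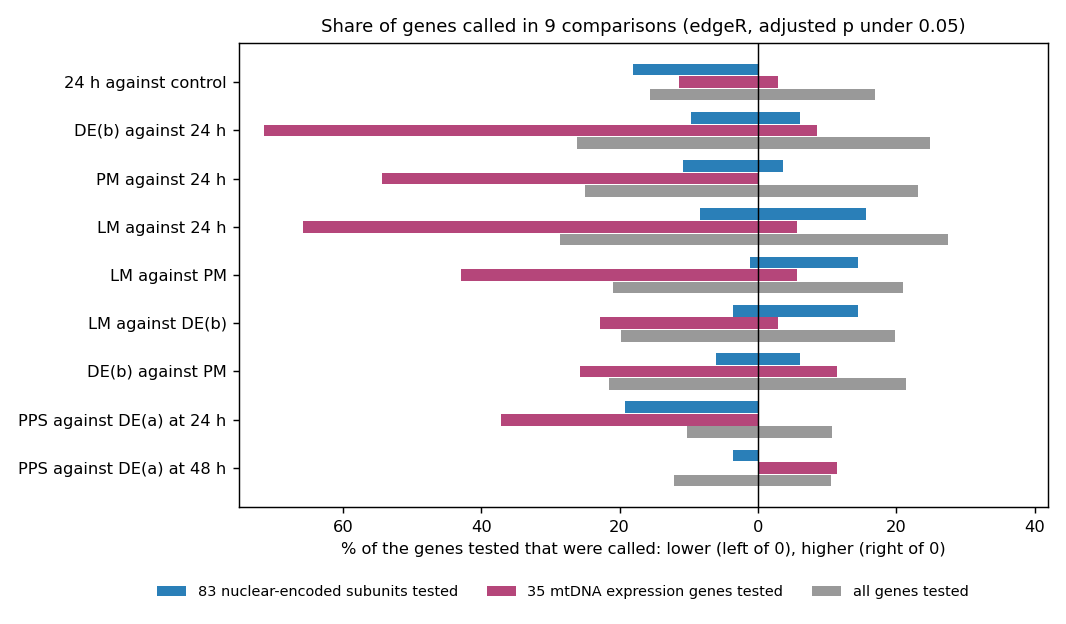
Percent of genes called lower (left of 0) and higher (right of 0) in 9 comparisons, for the 83 nuclear subunits tested, 35 genes of mitochondrial DNA expression and all 17895 genes tested (edgeR, adjusted p under 0.05). The subunits were called in 3.61% to 24.1% of cases, with no higher call at 24 h against the control or in PPS against DE(a) at either time.

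Among the nuclear subunits the largest fall in each medium was that of ATP5PD, subunit d of the peripheral stalk of ATP synthase (chromosome 17, 75038863 to 75046985, minus strand, GRCh38, GENCODE v44). It had 92.1 and 101 CPM in the control and 77.9 to 117 CPM (median 108) at 24 h. At 48 h it had 54.1 to 79 CPM (median 63.5) in DE(b), 36.7 to 60.1 CPM (median 51.5) in PM and 35.8 to 71.5 CPM (median 43.7) in LM. PM and LM did not overlap the values at 24 h, and DE(b) overlapped them only through DE(a)-DE(b) replicate 1 at 79 CPM. For DE(b), PM and LM the log2 fold changes against 24 h were -0.73 ± 0.12, -1.09 ± 0.12 and -1.18 ± 0.12 (SE, edgeR adjusted p = 2.32e-05, 1.16e-07 and 2.37e-08), and the condition mean fell in 4 of 4 day 1 populations in each medium. ATP5PD was also lower in LM than in DE(b) (-0.45 ± 0.12, SE, edgeR adjusted p = 0.00407) and higher in DE(b) than in PM (0.36 ± 0.12, SE, edgeR adjusted p = 0.0172). The last call was lost without DE(a)-DE(b) replicate 1, APS-PM replicate 2 or PPS-PM replicate 2.

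ATP5F1A, the alpha subunit of the ATP synthase catalytic core (chromosome 18, 46080248 to 46104334, minus strand), went the other way in LM. It had 372 to 575 CPM (median 452) at 24 h, 418 to 608 CPM (median 534) in DE(b), 389 to 614 CPM (median 472) in PM and 510 to 879 CPM (median 803) in LM. In LM the 6 libraries that began as DE(a), APS or MPS lay above every PM and DE(b) library, as did PPS-LM replicate 1 at 634 CPM, while PPS-LM replicate 2 was at 510 CPM. The log2 fold change of LM was 0.67 ± 0.09 against 24 h, 0.66 ± 0.09 against PM and 0.49 ± 0.09 against DE(b) (SE, edgeR adjusted p = 7.56e-07, 1.39e-06 and 7.24e-05). Its partner ATP5F1B fell, with a log2 fold change of -0.24 ± 0.08 in LM and -0.33 ± 0.08 in PM against 24 h (SE, edgeR adjusted p = 0.0161 and 0.00177). The LM call of ATP5F1B was kept in 28 of 34 fits that left out 1 library. ATP5IF1, the inhibitor that binds ATP synthase when it would run backwards, had 32.9 to 54.8 CPM at 24 h, 27.6 to 45.3 CPM (median 38.4) in PM and 40.8 to 70.4 CPM (median 52.7) in LM, a log2 difference of LM from PM of 0.59 ± 0.13 (SE, edgeR adjusted p = 0.000803). ATP5MC1, which encodes subunit c of the proton-carrying ring, was lower than at 24 h in all 3 media, with log2 fold changes of -0.54 ± 0.18, -0.51 ± 0.18 and -0.44 ± 0.18 in DE(b), PM and LM (SE, edgeR adjusted p = 0.0179, 0.0268 and 0.0457). Its groups overlapped (20.8 to 62.7 CPM at 24 h and 15.1 to 41.8 CPM over the 3 media), and these calls were kept in 29, 26 and 14 of 34 fits that left out 1 library.

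**Figure D4:**
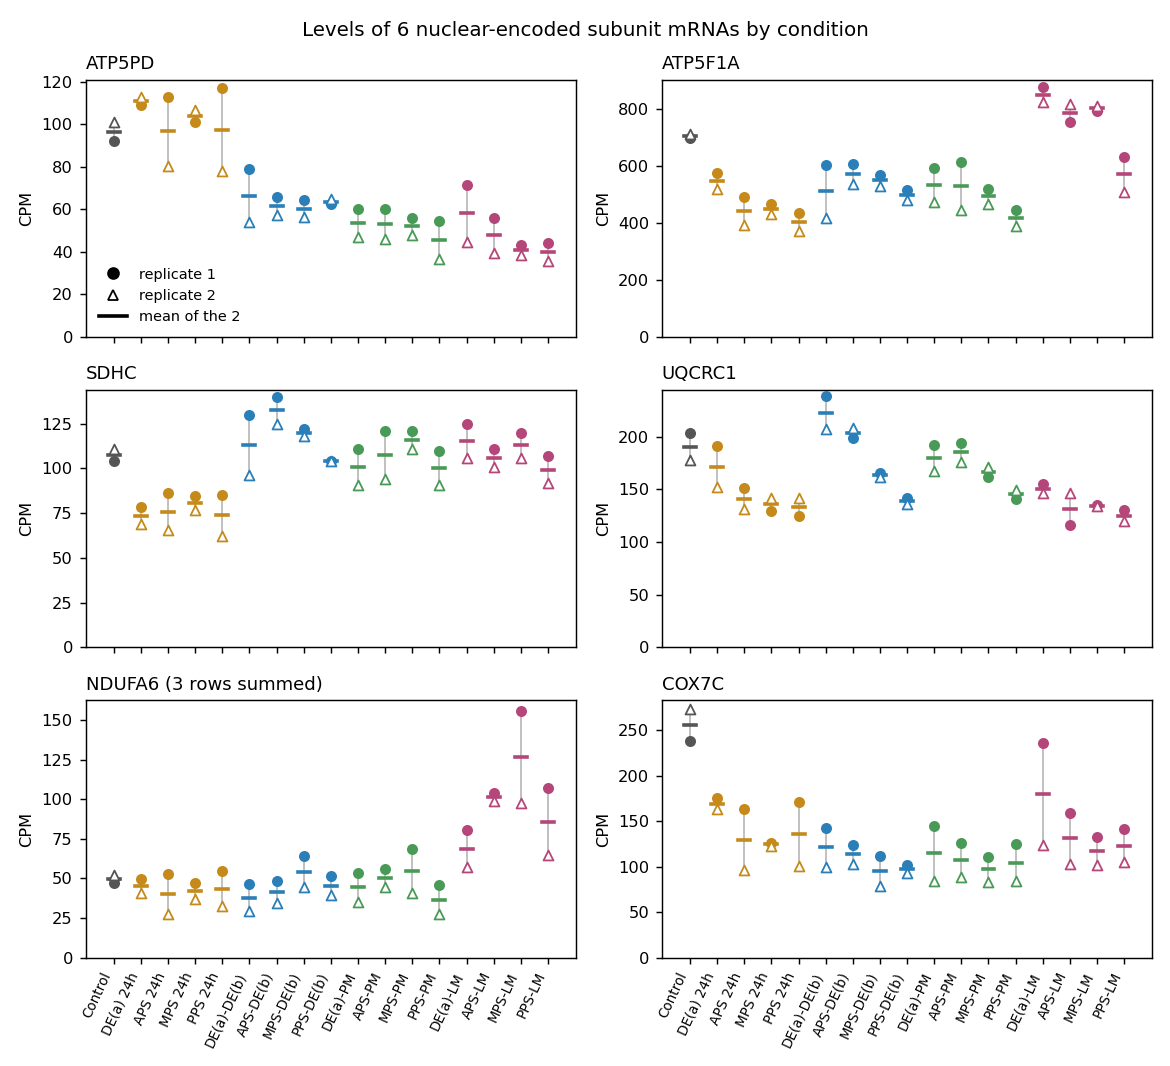
CPM of ATP5PD, ATP5F1A, SDHC, UQCRC1, NDUFA6 and COX7C in each library of the 17 conditions (filled circles replicate 1, open triangles replicate 2, bars the mean of both). ATP5PD was at 77.9 to 117 CPM at 24 h and 35.8 to 79 CPM at 48 h, and ATP5F1A reached 879 CPM in DE(a)-LM.

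SDHC, the anchor of complex II, rose from 24 h to 48 h in every medium. It had 62.2 to 86.2 CPM (median 77.6) at 24 h, 96.5 to 140 CPM (median 120) in DE(b), 90.7 to 121 CPM (median 110) in PM and 91.8 to 125 CPM (median 107) in LM. No library at 48 h overlapped those at 24 h, and the control had 104 and 111 CPM. For DE(b), PM and LM the log2 fold changes were 0.59 ± 0.08, 0.39 ± 0.08 and 0.48 ± 0.08 (SE, edgeR adjusted p = 4.76e-06, 0.000569 and 4.92e-05). SDHA rose in PM (0.22 ± 0.07, SE, edgeR adjusted p = 0.0086) and LM (0.24 ± 0.07, SE, edgeR adjusted p = 0.00356) but had a log2 fold change of -0.00 ± 0.07 in DE(b) (SE, edgeR adjusted p = 0.992). The difference of SDHA between the media was called directly, at 0.25 ± 0.07 for LM against DE(b) and -0.23 ± 0.07 for DE(b) against PM (SE, edgeR adjusted p = 0.00456 and 0.00818). SDHD had a log2 difference of DE(b) from PM of -0.27 ± 0.11 (SE, edgeR adjusted p = 0.0484), kept in 9 of 34 fits that left out 1 library.

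UQCRC1, a core protein of complex III (chromosome 3, 48599002 to 48610976, minus strand), had the lowest adjusted p of the nuclear subunits between LM and DE(b). It had 136 to 238 CPM (median 182) in DE(b), 141 to 194 CPM (median 169) in PM and 116 to 155 CPM (median 135) in LM. The log2 difference of LM was -0.40 ± 0.07 from DE(b) and -0.26 ± 0.07 from PM (SE, edgeR adjusted p = 3.79e-05 and 0.00341), and it was lower in LM in 4 of 4 day 1 populations. Within DE(b) it had 238 and 207 CPM in cells that began as DE(a) and 142 and 136 CPM in those that began as PPS. Against 24 h, UQCRC1 was higher in DE(b), at 0.27 ± 0.07 on the log2 scale (SE, edgeR adjusted p = 0.00179), and the changes of 0.13 ± 0.07 in PM and -0.13 ± 0.07 in LM were not called (SE, edgeR adjusted p = 0.132 and 0.101).

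Complex I, with 38 of the 83 nuclear subunits tested, held 9 of the 12 called higher in LM than in PM. It also held 9 of the 12 called higher in LM than in DE(b). Over all genes, 21.0% were higher and 21.0% lower in LM than in PM, and 19.8% were higher and 19.8% lower in LM than in DE(b). Over the 83 nuclear subunits, 12 were higher and 1 lower than in PM (median log2 difference 0.15, 69 of 83 positive), and 12 were higher and 3 lower than in DE(b) (median 0.12, 63 of 83 positive). The subunits called higher were thus no larger a share than among all genes in either comparison. Those called lower were UQCRC1 against PM, and UQCRC1, ATP5PD and the low COX7A1 against DE(b).

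NDUFA6, an accessory subunit of complex I, had the widest range of the nuclear subunits above 10 CPM. Its reads were assigned to 3 rows of the same symbol, 1 on the chromosome 22 reference (42085526 to 42090884, minus strand) and 2 with identifiers that GENCODE v44 does not place there, so how the reads were split between them is uncertain and the sum is given. The sum was 47.1 and 51.9 CPM in the control, 27.2 to 54.4 CPM (median 44) at 24 h, 29.1 to 64.2 CPM (median 45.5) in DE(b), 27.6 to 68.5 CPM (median 45) in PM and 57.1 to 156 CPM (median 98.3) in LM. Only DE(a)-LM replicate 2, at 57.1 CPM, and PPS-LM replicate 2 lay within the range of the other media. For the summed rows the log2 fold change of LM was 1.09 ± 0.18 against 24 h (SE, edgeR adjusted p = 2.13e-05), and for the row with most reads it was 1.06 ± 0.21 (SE, edgeR adjusted p = 0.000167). That row was also higher in LM than in PM (1.05 ± 0.21) and DE(b) (1.00 ± 0.21, SE, edgeR adjusted p = 0.000283 and 0.000516).

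NDUFA5, a subunit of the matrix arm, had 67.6 and 72.3 CPM in the control, 36 to 58.6 CPM (median 53.4) at 24 h, 35.5 to 47.7 CPM (median 41.3) in DE(b), 45.2 to 59.5 CPM (median 48.3) in PM and 47.6 to 74.4 CPM (median 60.9) in LM. It was higher in LM than in DE(b) by a log2 difference of 0.56 ± 0.10 (SE, edgeR adjusted p = 7.3e-05), and all 8 LM libraries but 1 lay above all 8 DE(b) libraries. NDUFS8, an iron-sulfur subunit, had the lowest adjusted p of the nuclear subunits between DE(b) and PM, with 43.7 to 52.8 CPM (median 49.2) in DE(b) and 28.5 to 47.4 CPM (median 36) in PM, a log2 difference of 0.45 ± 0.08 (SE, edgeR adjusted p = 0.000119). NDUFB1 was higher in LM than in DE(b) (0.53 ± 0.15, SE, edgeR adjusted p = 0.00803). NDUFV3 rose from 24 h in DE(b) by 0.29 ± 0.08 and in LM by 0.30 ± 0.08 (SE, edgeR adjusted p = 0.00423 and 0.00263). NDUFB9 was lower than at 24 h in PM and LM, with log2 fold changes of -0.55 ± 0.17 and -0.48 ± 0.17 (SE, edgeR adjusted p = 0.0108 and 0.0204), and was not called in PM without APS 24h replicate 1 or PPS 24h replicate 1, and its LM call was kept in 29 of 34 fits that left out 1 library. The core subunit NDUFV1 was lower in DE(b) than at 24 h (-0.19 ± 0.06, SE, edgeR adjusted p = 0.00674). NDUFB5 was higher in DE(b) than at 24 h by 0.55 ± 0.23 (SE, edgeR adjusted p = 0.0474), a call kept in 13 of 34 fits that left out 1 library.

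Between DE(b) and PM, 5 nuclear subunits were higher in DE(b) and 5 lower, against 21.4% and 21.6% of all genes, and the median log2 difference was 0.03, or -0.03 with library totals. Besides NDUFS8 and ATP5PD, NDUFB7 (0.29 ± 0.11, SE, edgeR adjusted p = 0.0448) was higher. ATP5MC2 and NDUFA5 were lower, with log2 differences of -0.26 ± 0.10 and -0.25 ± 0.10 (SE, edgeR adjusted p = 0.0373 and 0.0459). The calls of NDUFB7 and NDUFA5 were each kept in 13 of 34 fits that left out 1 library and that of ATP5MC2 in 23. The count of 10 fell to 5 without PPS-DE(b) replicate 1, MPS-PM replicate 1 or MPS-LM replicate 2, and to 6 without MPS-LM replicate 1, APS-DE(b), MPS-DE(b), PPS-DE(b) or DE(a)-PM replicate 2, or either control replicate. COX7C was lower than at 24 h in DE(b) (-0.42 ± 0.16) and PM (-0.49 ± 0.16, SE, edgeR adjusted p = 0.0349 and 0.0166), and COX5A in PM (-0.34 ± 0.11) and LM (-0.28 ± 0.11, SE, edgeR adjusted p = 0.0158 and 0.0372). The COX5A calls were kept in 31 and 19 of 34 fits that left out 1 library, and those of COX7C in DE(b) and PM in 23 and 28 of 34.

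The streak populations were compared at the ends of the anterior to posterior series. At 24 h, 16 of 83 nuclear subunits were lower in PPS than in DE(a) and 0 were higher, against 10.2% and 10.7% of all genes. The median log2 fold change was -0.48, with 77 of 83 values negative, and it was 0.00 for all genes. DESeq2 called 19, all lower, and at an unadjusted p under 0.05 the count was 28. The calls were spread over all complexes, with 6 in complex I, 2 in II, 3 in III, 1 in IV and 4 in V. The cytosolic ribosomal proteins fell as well, with 18 of 89 called lower and a median of -0.67. The summed nuclear share was 0.734% and 0.638% in the DE(a) libraries and 0.599% and 0.44% in the PPS libraries, and the summed mitochondrial share 3.55% and 7.99% in DE(a) and 7.13% and 9.03% in PPS. Each group here is 2 libraries. The count fell to 2 without DE(a) 24h replicate 1 and to 3 without PPS 24h replicate 2, and the median lay between -0.77 and -0.21 over the fits that left out 1 library. Fitting only these 4 libraries gave 6 calls.

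NDUFA11, an accessory subunit of the complex I membrane arm, had 58.7 and 83.8 CPM in DE(a) and 37.4 and 41.2 CPM in PPS, a log2 fold change of -0.93 ± 0.23 (SE, edgeR adjusted p = 0.00493). UQCR11, a small subunit of complex III, had 41.1 and 54.4 CPM in DE(a) and 23.1 and 33.5 CPM in PPS (-0.83 ± 0.28, SE, edgeR adjusted p = 0.039). ATP5MC3, a gene of the c-ring, had 188 and 221 CPM in DE(a) and 95.9 and 147 CPM in PPS (-0.82 ± 0.26, SE, edgeR adjusted p = 0.0266). The NDUFA11 and ATP5MC3 calls were lost without DE(a) 24h replicate 1. That of ATP5MC3 was also lost without DE(a) 24h replicate 2 or PPS 24h replicate 2, and that of UQCR11 was kept in 24 of 34 fits that left out 1 library. SDHB had 49.4 and 54.6 CPM in DE(a) and 27.5 and 36.5 CPM in PPS, with a log2 fold change of -0.77 ± 0.24 (SE, edgeR adjusted p = 0.0223), lost without either DE(a) replicate or PPS replicate 2. UQCRFS1, ATP5F1B, ATP5F1A and UQCRC1 were also called lower (-0.55, -0.56, -0.51 and -0.43, edgeR adjusted p = 0.01, 0.0159, 0.0369 and 0.0249). Each of these was lost without DE(a) 24h replicate 1 and without at least 1 of the PPS 24h libraries, and ATP5F1A was kept in only 21 of 34 fits that left out 1 library. SDHA, NDUFV1, NDUFS1, COX4I1 and COX5A were not called. The log2 fold change of COX4I1 was -0.37 ± 0.22 and that of COX5A -0.39 ± 0.22 (SE, edgeR adjusted p = 0.259 and 0.233), and that of SDHA was 0.04 ± 0.13 (SE, edgeR adjusted p = 0.887). With the replicate term COX4I1 was called (edgeR adjusted p = 0.0355).

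At 48 h, over the 3 media, 3 of 83 nuclear subunits were lower in cells that began as PPS than in those that began as DE(a), and 0 were higher, against 12.1% and 10.6% of all genes. The median log2 fold change was -0.10, or 0.00 without DE(a)-DE(b) replicate 1, and at an unadjusted p under 0.05 the count was 6, also the count called by DESeq2, all lower. UQCRC1 had 146 to 238 CPM (median 179) in the 6 DE(a) libraries and 120 to 149 CPM (median 138) in the 6 PPS libraries, a log2 fold change of -0.37 ± 0.08 (SE, edgeR adjusted p = 0.00116). NDUFC1, an accessory subunit of complex I, had 18.5 to 33.9 CPM in DE(a) and 16.3 to 21.2 CPM in PPS (-0.38 ± 0.13, SE, edgeR adjusted p = 0.0428), kept in 7 of 34 fits that left out 1 library. NDUFA3 was below 10 CPM, at 4.46 to 7.55 CPM in DE(a) and 3.07 to 4.52 CPM in PPS over its 2 rows. The count was 5 without DE(a)-DE(b) replicate 2 or DE(a)-PM replicate 2. A test of whether the day 1 treatments differed by medium at 48 h, the interaction, called 0 of 83 nuclear and 0 of 13 mitochondrial subunits with edgeR, against 13.1% of all genes. At an unadjusted p under 0.05 it called 0 of each, and DESeq2 also called 0 of each.

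Without a replicate term, the 13 mitochondrially encoded mRNAs were called in 0 of the 11 tests by edgeR and by DESeq2. They were higher in replicate 2 (11 of 13 called, none the other way), where 23.5% of all genes were called in either direction. With the replicate term edgeR called 2 of 13 higher at 24 h against the control, 5 lower in DE(b) against 24 h and 2 higher in LM against DE(b). It also called 1 higher in PPS against DE(a) at 24 h and 4 for any difference. At 24 h all 13 had positive log2 fold changes against the control, from 0.22 for MT-CO3 to 0.70 for MT-ND4, with a median of 0.52. The smallest edgeR adjusted p without the term was 0.115, for MT-ND5, and 1 of 13 had an unadjusted p under 0.05. In DE(b) all 13 had negative values against 24 h, with a median of -0.31, and positive values in LM against DE(b), with a median of 0.24, and in each of these tests 2 of 13 had an unadjusted p under 0.05. In the other 6 directional comparisons the count at an unadjusted p under 0.05 was 0. These mRNAs are processed from long shared precursors, so their 13 values are not 13 independent observations. Without DE(a)-DE(b) replicate 2, the library with the highest mitochondrial share, 8 of 13 were called in DE(b) against 24 h and 5 of 13 in LM against DE(b). In DE(b) against 24 h the count was also 7 without DE(a) 24h replicate 1, 2 without APS 24h replicate 1 and 1 without MPS-DE(b) replicate 1. Without DE(a) 24h replicate 2, 5 of 13 were called in PPS against DE(a) at 24 h.

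Within the 13, MT-CO1, the catalytic subunit of complex IV (mitochondrial DNA 5904 to 7445, plus strand), took the largest share of the counts, 24.4% to 30.6% with a median of 28.3%. MT-ND4 took a median of 14.8% and MT-CO3 11.5%. Per kilobase of transcript the medians were 10300 CPM for MT-CO1, 8130 for MT-CO3, 7610 for MT-CO2 and 7350 for MT-ATP6, against 5900 for MT-ND4, 3250 for MT-ND2, 3170 for MT-CYB, 2950 for MT-ND1 and 1870 for MT-ND5. The lowest were MT-ND4L at 1610, MT-ND3 at 1500, MT-ND6 at 1440 and MT-ATP8 at 1050 CPM per kilobase. The libraries were poly(A)-selected, and whether this selection captured all 13 mRNAs equally was not tested. The complex IV and ATP synthase mRNAs other than MT-ATP8 thus stood above all complex I mRNAs per length in their medians, although the ranges over libraries overlapped (6370 to 17400 for MT-CO1 and 3640 to 10900 for MT-ND4). MT-ND6 alone lies on the minus strand (14149 to 14673). MT-ATP8 and MT-ATP6 overlap, as do MT-ND4L and MT-ND4, so the split of reads within each pair is uncertain.

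Several subunits have another gene known from other tissues, and here the general gene carried nearly all the signal. COX4I1 had 102 to 228 CPM (median 164) over the 34 libraries, and COX4I2, known from lung, was at or under 3 counts in 34 of 34 libraries. The heart and muscle gene COX6A2, the testis-linked COX7B2 and COX8C, and ATP5MGL were also at or under 3 counts in every library, a limit below which counting gives no level, whereas per kilobase of transcript the medians were 162 CPM for COX6A1, 14.1 for COX7B, 135 for COX8A and 65.6 for ATP5MG. COX6B2, known from testis, was above 3 counts in 23 libraries and was highest in the control, at 0.957 and 1.58 CPM, against 0 to 0.198 CPM at 24 h (log2 fold change -3.26 ± 0.64, SE, edgeR adjusted p = 0.000373). It was called higher again in PM and LM than at 24 h (1.55 ± 0.51 and 1.96 ± 0.51, SE, edgeR adjusted p = 0.015 and 0.00217), and per kilobase its median over all libraries was 0.187 CPM against 129 for COX6B1. COX7A1, the heart and muscle form, was above 3 counts in 14 libraries and reached 0.721 CPM. It had 0.363 and 0.322 CPM in DE(a) 24h and 0 in both PPS 24h libraries, and 0.0961 to 0.721 CPM in DE(b) against 0 to 0.239 CPM in PM (log2 difference 2.57 ± 0.56, SE, edgeR adjusted p = 0.000779). These are changes of a few counts, and per kilobase the medians were 0.367 CPM for COX7A1 and 128 for COX7A2. NDUFA4, now assigned to complex IV, had a median of 53.8 CPM per kilobase and its hypoxia-linked paralog NDUFA4L2 one of 0.202. UQCRHL, a near copy of UQCRH, had a median of 2.12 CPM per kilobase against 279 for UQCRH, and reads of such copies can be misassigned.

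The mature subunit c of the ATP synthase ring is encoded by 3 genes, ATP5MC1, ATP5MC2 and ATP5MC3. Per kilobase of transcript, ATP5MC2 had a median of 175 CPM, ATP5MC3 61 and ATP5MC1 46.4. The ratio of ATP5MC2 to ATP5MC3 per kilobase was 2.21 to 3.86 over the 34 libraries (median 2.84). Without the length correction ATP5MC3 stood above ATP5MC2, at 158 against 111 CPM, and the ratio was 0.694, because the canonical ATP5MC3 transcript is 2587 nt long and that of ATP5MC2 632 nt. COX7A2 stood 4.93 times above COX7A2L per kilobase (3.64 to 7.08), and the pair was level in CPM, with a ratio of 0.999. The share of each gene's transcripts in use was not measured, so the lengths are those of the canonical transcripts.

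Genes that serve the complexes without being subunits were described by lists of mitochondrial DNA expression, assembly, the tricarboxylic acid cycle, and carriers. The first list also holds transcription factors and coactivators of nuclear genes, such as NRF1, GABPA, YY1, MYC, PPRC1 and PPARGC1B. Its counts therefore do not describe factors inside the mitochondrion alone. In LM against 24 h, 25 of 35 genes of mitochondrial DNA expression tested were called, 23 of them lower, with a median log2 fold change of -0.42. Of all genes, 28.6% were lower and 27.4% higher. Of 58 assembly factors, 17 were lower, a share near that of all genes, and 4 higher. Of 16 genes of the tricarboxylic acid cycle and pyruvate dehydrogenase, 10 were lower and 1 higher, and of 13 carriers and creatine kinases, 9 were lower and 0 higher. In DE(b) against 24 h the mitochondrial DNA expression genes had 25 of 35 lower and 3 higher, and in PM 19 lower and 0 higher, where 26.2% and 25.1% of all genes were lower. TWNK, the helicase of mitochondrial DNA replication, had 71.2 CPM in both control libraries, 33.7 to 69.8 CPM (median 53.1) at 24 h, 17 to 29.5 CPM (median 22.9) in DE(b), 28.8 to 35.1 CPM (median 31.3) in PM and 14.6 to 25 CPM (median 19.7) in LM. LM and DE(b) did not overlap the values at 24 h, and the log2 fold change in LM was -1.39 ± 0.09 (SE, edgeR adjusted p = 9.41e-12). PPRC1, a coactivator of the PGC-1 family, had 133 to 229 CPM (median 177) at 24 h and 54.4 to 97.6 CPM (median 67.3) in LM, a log2 fold change of -1.36 ± 0.10 (SE, edgeR adjusted p = 1.76e-10). FASTK was the mitochondrial DNA expression gene with the largest rise (0.41 ± 0.12, SE, edgeR adjusted p = 0.00598).

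Among the assembly factors, COA7, which serves complex IV, and NDUFAF4, which serves complex I, fell in LM with log2 fold changes of -1.125 and -1.099 (SE 0.0844 and 0.133, edgeR adjusted p = 1.91e-10 and 3.4e-07), while PET100 and COA5 rose by 0.50 and 0.40 (edgeR adjusted p = 0.0148 and 0.0107). The PET100 call was lost without DE(a)-LM replicate 1 or MPS-LM replicate 1. CKMT1B, a mitochondrial creatine kinase, had 22.6 and 27.3 CPM in the control, 5.48 to 14.3 CPM at 24 h and 1.43 to 5.19 CPM in LM, a log2 fold change of -1.85 ± 0.19 in LM (SE, edgeR adjusted p = 2.96e-08). The near-identical CKMT1A was also called (-3.22 ± 0.42, SE, edgeR adjusted p = 8.63e-07), and the split of reads between the 2 copies is uncertain. In the tricarboxylic acid cycle, SUCLA2, the ATP-forming subunit of succinyl-CoA synthetase, had 58.6 and 70.9 CPM in the control, 63.5 to 145 CPM (median 87.6) at 24 h and 48.2 to 71.3 CPM (median 55.5) in LM, with log2 fold changes of 0.64 ± 0.13 at 24 h and -0.80 ± 0.08 in LM (SE, edgeR adjusted p = 0.000517 and 1.72e-08). SUCLG2, its GTP-forming alternative, had 35.2 and 38.1 CPM in the control, 16 to 30 CPM (median 25.6) at 24 h and 25.3 to 39.2 CPM (median 36) in LM, with log2 fold changes of -0.49 ± 0.16 and 0.43 ± 0.11 (SE, edgeR adjusted p = 0.026 and 0.00172). PDHB, of pyruvate dehydrogenase, moved as SUCLA2 did, at 0.59 ± 0.13 and -0.71 ± 0.08 (SE, edgeR adjusted p = 0.0011 and 1.17e-07). The 24 h libraries are shared by both comparisons. The calls of SUCLA2 and PDHB at 24 h were lost without control replicate 1, and that of SUCLG2 without either control replicate.

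At 24 h against the control, 6 of 58 assembly factors were lower and 1 higher, 4 of 35 mitochondrial DNA expression genes lower and 1 higher, 1 of 16 tricarboxylic acid cycle genes lower and 4 higher, and 2 of 13 carriers lower and 0 higher, against 15.6% lower and 16.9% higher of all genes. NDUFAF7, a complex I assembly factor, had 45 and 53.7 CPM in the control and 22 to 27.7 CPM at 24 h, a log2 fold change of -0.90 ± 0.13 (SE, edgeR adjusted p = 1.27e-05). PPARGC1B, a coactivator of the same family as PPRC1, had 30.6 and 31.3 CPM in the control and 2.22 to 27.4 CPM (median 9.18) at 24 h (-1.61 ± 0.33, SE, edgeR adjusted p = 0.000492). In PPS against DE(a) at 24 h, 13 of 35 mitochondrial DNA expression genes and 23 of 80 mitochondrial ribosomal proteins were lower and 0 of either were higher, against 10.2% and 10.7% of all genes. MYC, a transcription factor in the first list, differed most (-3.42 ± 0.39, SE, edgeR adjusted p = 1.48e-06), followed by PPARGC1B (-2.97 ± 0.50, SE, edgeR adjusted p = 0.000156), and PDHB, SUCLA2 and the electron carrier gene CYCS were lower too (-1.27, -1.07 and -1.14, edgeR adjusted p = 5.56e-06, 3.79e-05 and 0.00613). The CYCS call was lost without PPS 24h replicate 2. At 48 h, 4 of 35 mitochondrial DNA expression genes were higher and 0 lower in cells that began as PPS, against 10.6% and 12.1% of all genes, so the share higher was near the background.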

How the data were processed

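RNA-seq of 34 libraries (17 conditions, 2 replicates) was analysed from estimated counts per gene. The authors made these deposited estimated counts with Salmon 1.10.2 against a GRCh38 transcriptome, with correction for sequence and GC bias, from poly(A)-selected, stranded, paired-end libraries, and summed them to genes in R 4.4.2. The annotation release is not given in the sources used here. Such counts do not correct for transcript length, so levels of different genes were compared per kilobase, apart from shares of library counts and 2 ratios given both ways. Replicate 1 libraries are in 1 deposited table and replicate 2 libraries in the other, so table and replicate cannot be told apart.

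Counts were rounded and tested with edgeR 4.0.16 in R 4.3.3 (TMM, filterByExpr by condition, quasi-likelihood, 1 mean per condition over all 34 libraries), which left 17895 of 37951 genes. P-values were adjusted over all of these by Benjamini-Hochberg, with calls made below 0.05. Comparisons of stages average over the day 1 conditions on the log2 scale. CPM are counts scaled to a library total of 1e6. Totals ranged from 15522780 to 23439799 (median 19341118). In counts simulated for 24 h against control (17300 genes), 100 genes above 10 CPM were changed by 1 on the log2 scale and 100 by 0.5. Of these, 85% and 26% were recovered. Far fewer genes differed there than in the data, and the other comparisons were not simulated. Gene positions are from GENCODE 44.

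The members and lists were chosen with earlier results of these data known. Genes named are the mitochondrial mRNAs, 10 set subunits (NDUFV1, NDUFS1, SDHA, SDHB, UQCRC1, UQCRFS1, COX4I1, COX5A, ATP5F1A and ATP5F1B), the isoform pairs, the 3 largest rises and falls called in each comparison above 10 CPM, the 5 nuclear members with the widest range of condition means and, of each other list, the 2 largest rises and falls. SDHC, SDHD, NDUFA5, NDUFS8, NDUFV3, COX7C and COX6B2 are also described in comparisons where that rule did not name them, and were chosen there after their values were seen. The values of 1 member are not reported here, although it is in the counts. Alternatives were a replicate block, RLE or library-total scaling, no filter, no mitochondrial genes, only the libraries compared, DESeq2 1.42.0, each library left out and rows of 1 symbol summed (the last chosen after seeing the data).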

Additional observations from a re-analysis of the deposited data

How the results depend on the processing

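The counts of nuclear subunits called moved by more than 1.5 times under these settings. With a replicate block, 27 were called at 24 h against the control, 25 in DE(b) against 24 h, 20 in LM against PM, 24 in LM against DE(b), 19 in DE(b) against PM, 40 and 8 in PPS against DE(a) at 24 h and 48 h, and 48 for any difference. Without the filter on low counts the numbers were 24 at 24 h against the control, 28 in PPS against DE(a) at 24 h, 4 for the interaction and 55 for any difference. With only the libraries compared, PPS against DE(a) gave 6 calls at 24 h and 1 at 48 h. At 48 h, library totals and DESeq2 each gave 6, and DESeq2 gave 36 for any difference. Of the mitochondrial mRNAs, the block called 2 at 24 h against the control, 5 in DE(b) against 24 h, 2 in LM against DE(b), 1 in PPS against DE(a) at 24 h and 4 for any difference. Without the filter 9, 9, 2 and 2 were called at 24 h against the control and in DE(b), PM and LM against 24 h, 4 in LM against DE(b), 1 in DE(b) against PM, 3 in PPS against DE(a) at 24 h, 9 for the interaction and 12 for any difference. The cause was not tested. Replicate numbers were not taken as pairs: the correlation of deviations was above 0.1 in 43 of 136 pairs of conditions (median 0.0755). That correlation is over all genes tested and does not speak for the subunits. The replicate term called 62 of 83 nuclear subunits lower in replicate 2 and 11 of 13 mitochondrial mRNAs higher. Of all genes, 23.5% were called for it.

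With each library left out, nuclear calls ranged from 5 to 22 at 24 h against the control, 9 to 16, 6 to 15 and 13 to 24 in DE(b), PM and LM against 24 h, 9 to 17 in LM against PM, 12 to 18 in LM against DE(b), 5 to 12 in DE(b) against PM, 2 to 18 and 2 to 5 in PPS against DE(a) at 24 h and 48 h, and 16 to 26 for any difference. Mitochondrial calls ranged from 0 to 2 at 24 h against the control, 0 to 8, 0 to 1 and 0 to 1 in DE(b), PM and LM against 24 h, 0 to 5 in LM against DE(b) and in PPS against DE(a) at 24 h, and 0 to 1 for any difference, and stayed at 0 elsewhere. Without length correction the ratio of ATP5MC2 to ATP5MC3 was 0.694 in place of 2.84 and that of COX7A2 to COX7A2L 0.999 in place of 4.93. No named gene reversed its direction with a call. In the simulation of 24 h against the control, 26% of changes of 0.5 on the log2 scale were recovered, so small changes can be missed there. The share recovered in the other comparisons was not simulated.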
